A study of Neurospora crassa with 22 samples.

Results

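The genes described here are those numbered NCU01849 to NCU02065 in Neurospora crassa, a filamentous fungus, without NCU01932, NCU01958 and NCU01977. They run along linkage group I on both sides of the mating type gene matA-1 (NCU01958). The deposited RNA-seq table held 196 such genes among 9730 genes in all. The members were selected by gene number, but the range of numbers was set after strain differences near the locus had been seen in this same comparison. The strain differences of the members are therefore given as a description, with no test of their own.

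The series compares a wild-type strain with an hH1 mutant, which lacks a working copy of the gene for the linker histone H1 (NCU06863). RNA was taken from 3 wild-type and 3 hH1 libraries, all from cultures grown for 5 hr in minimal medium with glucose. The labels call the material mycelium, whereas the study's methods describe germinating conidia, the asexual spores. Nothing in the labels gives the mating type of either RNA-seq strain, and the study's strain list holds wild types of both mating types, an hH1 deletion strain of mating type A carrying a hygromycin resistance gene, and an hH1 strain made by repeat-induced point mutation. Loss of H1 and any other difference between the strains used cannot be told apart in these libraries. Nor do the labels say whether the libraries of a strain came from separate cultures, so a standard error (SE) below reflects only spread between these libraries. Each SE comes from the fit over all tested genes described below. That fit draws a gene's own spread toward the spread of genes of like level, so an SE can be above or below the gene's own.

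The mating type locus of N. crassa decides with which partner a strain can mate. Its alternative forms, A and a, hold unlike sequences at the same place and are called idiomorphs. The A form carries matA-1, matA-2 and matA-3, and the DNA on either side of the idiomorph is shared by strains of both types. Because recombination is limited between close positions, DNA linked to the locus tends to be inherited with it in a cross. The reference strain of the NC12 assembly, OR74A, is of mating type A.

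Values are FPKM (fragments scaled to the length of the transcript and to the total of mapped fragments) from the authors, summed over the transcripts of a gene, and the 3 values of a strain stand in the order of the table. Differences are log2 changes, hH1 minus wild type, on the scale of log2(FPKM + 1), which understates the change of low genes. A gene was called higher or lower where its Benjamini-Hochberg adjusted p from limma, fitted over the 7208 genes whose mean over the 6 libraries reached 1 FPKM, was under 0.05. The hH1 gene itself had 266, 327 and 293 FPKM in wild type and 9.35, 2.06 and 3.22 FPKM in hH1, as labelled (exact permutation test, two-sided p = 0.1, the smallest value that the 20 labelings of 6 libraries can give). Depth estimated from the steps of low values was 6300000 to 11000000 fragments in the wild-type libraries and 5300000 to 8700000 in the hH1 libraries. The first hH1 library listed 2185 genes at 0, against 1577 to 1712 in the other 5 libraries. Of the genes that mark conidia, con-6 did not exceed 1.25 FPKM in any library, con-8 had means of 6.48 FPKM in wild type and 5.85 FPKM in hH1, con-10 had means of 1.08 and 0.731 FPKM, and the hydrophobin gene eas had means of 5.98 and 9.37 FPKM. The gene hex-1, which encodes the major protein of the hyphal Woronin body, had means of 3847 and 5801 FPKM and was not called.

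By the NC12 gene table, all 196 members lay on linkage group I between positions 1488131 and 2267170, a stretch of 779.0 kb. The numbers fell steadily along the linkage group, with 0 breaks in their order. The start of matA-1 at 1860692 left 372.6 kb of the stretch at lower coordinates and 406.5 kb at higher coordinates, with 102 and 94 members. Only 25 members had a symbol of their own in the gene table, and 45 overlapped another gene by their coordinates. The median of the members' levels was near that of the rest of the linkage group. Their wild-type means had a median of 11.3 FPKM, against 9.12 FPKM over all genes and 11.7 FPKM over the rest of linkage group I. In hH1 the median was 10.6 FPKM for members and 8.38 FPKM for all genes. A wild-type mean of at least 100 FPKM was reached by 15 members (7.65%), against 8.45% of all genes. At the other end, 16 members (8.16%) were listed at 0 in all 6 libraries, against 11.2% of all genes. The members together held 2.71%, 2.79% and 2.76% of all FPKM in the wild-type libraries and 2.59%, 3.04% and 2.94% in the hH1 libraries. The share in hH1 thus lay on both sides of the wild-type range. A large part of it came from the highest member, tef-1 (NCU02003), with 5400 to 8033 FPKM in the 6 libraries. All members together had 14969 to 19151 FPKM.

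Of the 196 members, 154 had a mean of at least 1 FPKM and were tested. The other 42 were too low, of which 26 were above 0 in at least 1 library. The fit over all genes called 360 of 7208 genes (4.99%), 125 of them higher in hH1 (1.73%) and 235 lower (3.26%). Among the tested members, 20 were called (13.0%), of which 14 were higher in hH1 and 6 were lower. Since the range was chosen by this contrast, nothing is read from the share. The split of all called genes depended on the scaling of the libraries, more than that of the called members. Of all called genes 34.7% were higher in hH1 with the values as deposited and 66.7% once the library medians were made equal, and of the called members 70.0% and 76.0%. In the rest of linkage group I, 1699 genes were tested and 24 were higher and 39 lower (3.71% called). On the other linkage groups, 86 were higher and 190 lower of 5352 tested (5.16% called). The median log2 change of the tested members was -0.05, against -0.10 over all tested genes. Of the tested members, 68 had a log2 change above 0 and 86 below 0. A log2 change of at least 1 in either direction was seen in 10 tested members (6.49%) and in 2.61% of all tested genes.

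The values of the 2 strains did not overlap in 58 tested members. In 21 of these (13.6%) every hH1 library was above every wild-type library, against 10.4% of all tested genes, and in 37 (24.0%) every hH1 library was below, against 21.8%. All 20 called members were among the 58, and the other 38 were not called. The first hH1 library was below the 5 others in 52 of the 154 tested members (33.8%, against 33.4% of all tested genes), and the fit without this library called 17 members, 12 higher and 5 lower. Over the members, Spearman's rho between 2 libraries was 0.986 to 0.989 within wild type, 0.976 to 0.991 within hH1 and 0.951 to 0.971 between the strains. Over all genes the same ranges were 0.983 to 0.985, 0.976 to 0.989 and 0.964 to 0.982. These coefficients describe the order of genes within libraries, and genes are not independent replicates.

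**Figure D1:**
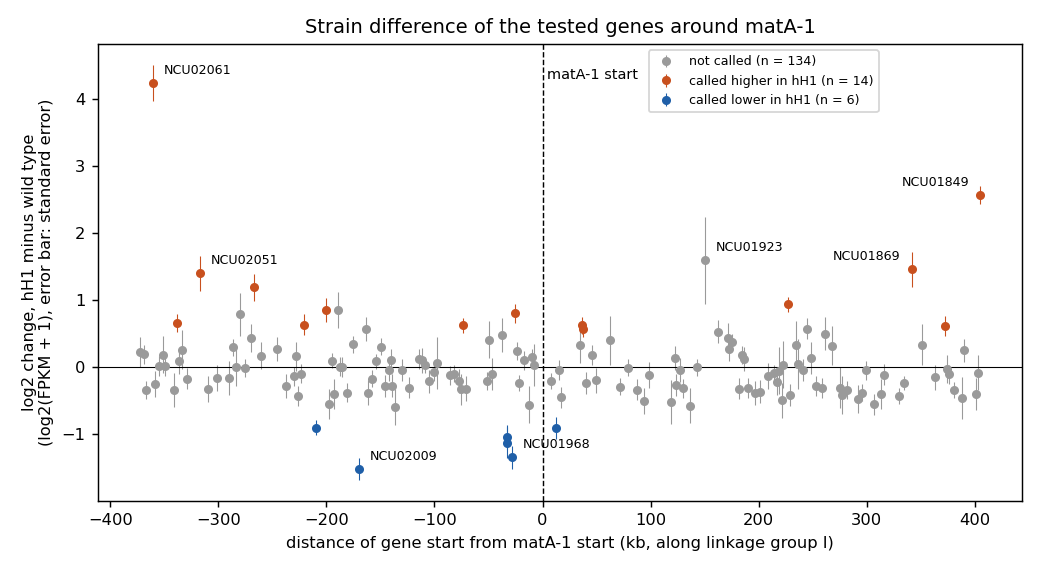
Log2 change of the 154 tested genes, hH1 minus wild type on the scale of log2(FPKM + 1), against the distance of each gene's start from the start of matA-1 in kb, where negative distances are lower coordinates. Points are genes, bars are standard errors from the fit over all genes, and colours mark the 14 genes called higher, the 6 called lower and the 134 not called. The largest differences, NCU02061 and NCU01849, lie near the 2 ends of a range set after strain differences had been seen. Nothing is read from their place. Of the 6 genes called lower, 4 are among the 23 tested within 50 kb of matA-1, while 3.26% of all tested genes were called lower. The 7 calls of either direction within 50 kb fell to 1 without the first wild-type library and to 2 without the second hH1 library.

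The calls are given by distance as a description, beside 4.99% called over all tested genes. Within 50 kb of the matA-1 start, 23 of 29 members were tested, and 3 were higher and 4 lower in hH1 (30.4% called). From 50 to 100 kb, 1 of 14 tested members was called. From 100 to 200 kb, which held 43 tested members, again 1 was called (2.33%). From 200 to 300 kb 4 were higher and 1 lower among 41 tested members (12.2%), and beyond 300 kb 6 were higher and 0 lower among 33 (18.2%). These counts were not stable. With the library medians made equal, 5 members were called from 100 to 200 kb, 6 from 200 to 300 kb and 6 beyond. Without the first wild-type library the counts were 1 within 50 kb, 2 from 200 to 300 kb and 2 beyond 300 kb. They were 4, 3 and 3 without the second wild-type library, 2, 3 and 3 without the second hH1 library and 4, 2 and 2 without the third. Over all tested genes these fits, in that order, called 421, 29, 119, 111 and 135 genes, against 360 with all libraries as deposited. No order of the distance classes is read from the counts. On the side of lower coordinates 8 members were higher and 5 lower of 80 tested (16.2%), and on the other side 6 were higher and 1 was lower of 74 tested (9.46%). The counts of 13 and 7 called became 15 and 10 with equal medians, 4 and 2 without the first wild-type library, 9 and 3 without the second, 6 and 4 without the second hH1 library and 6 and 3 without the third. The numbered range also enclosed 14 genes with numbers outside it. Of these 7 were tested and 0 were called. Every hH1 library was above every wild-type library in 1 of them (10.4% of all tested genes). In 2 every hH1 library was below (21.8% of all tested genes). In the 200 kb just outside the 2 ends, 1 gene was higher and 4 were lower of 52 tested (9.62%).

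**Figure D2:**
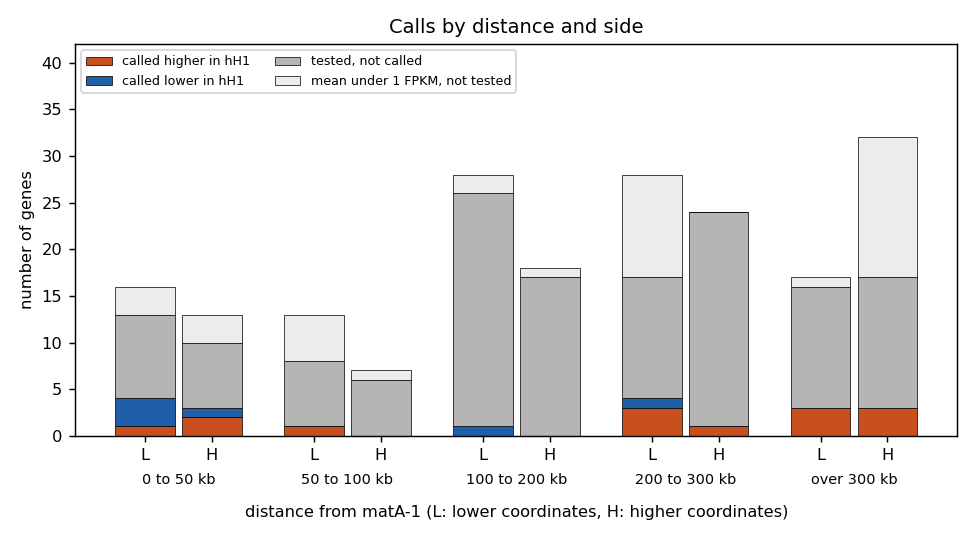
Number of genes called higher in hH1, called lower, tested but not called, and not tested because their mean was under 1 FPKM, by distance of the gene start from matA-1 and by side (L, lower coordinates; H, higher coordinates). The bars from 100 to 200 kb hold 1 called gene, and the bars beyond 300 kb hold 6, all higher in hH1, but with the library medians made equal the first count is 5, and without the first wild-type or the third hH1 library the second is 2.

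The mating type genes open the account of single members. matA-2 (NCU01959) and matA-3 (NCU01960), which lie in the A idiomorph beside matA-1, were listed at 0 in all 6 libraries. matA-1, which stands outside the selection, was at 0 in all wild-type libraries and had 2.60, 1.75 and 3.83 FPKM in hH1. The fit over all genes called matA-1 higher in hH1. A 0 in a table without counts can be a failed estimate, and a fitted change against it depends on the pseudocount, so no fold is given.

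Of the 4 nearest genes on each side of matA-1, only NCU01955 was called. At lower coordinates NCU01961 had 2.32, 2.22 and 2.15 FPKM in wild type and 1.13, 3.53 and 2.77 FPKM in hH1. Its hH1 values enclosed the wild-type values, with a log2 change of 0.03. The next gene, eat-5 (NCU01962), was one of the highest members, with 973, 1071 and 857 FPKM in wild type and 1031, 1090 and 1104 FPKM in hH1 (log2 change 0.16). At higher coordinates NCU01957 was too low to be tested, at 0.615 FPKM or less in every library. The next gene, eat-2 (NCU01956), was lower in every hH1 library than in every wild-type library and was not called (log2 change -0.21). NCU01955 had 40.9, 37.1 and 42.3 FPKM in wild type and 20.9, 17.2 and 25.5 FPKM in hH1, with all hH1 values below all wild-type values and a log2 change of -0.90 ± 0.16 (SE, n = 3 per strain, called lower). Its neighbour NCU01954 had 20.9, 17.4 and 17.6 FPKM in wild type and 17.0, 17.1 and 20.5 FPKM in hH1, with overlapping ranges and a log2 change of -0.03.

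A run of 4 adjacent called genes, NCU01970 to NCU01967, lay 25 to 33 kb from matA-1 on the side of lower coordinates. The first 3 were lower in hH1. Of the 6 fits that each left out 1 library, 1 called NCU01970, 5 called NCU01969, 5 called NCU01968 and 4 called NCU01967. NCU01970 had 10.9, 18.2 and 22.8 FPKM in wild type and 7.04, 6.70 and 7.47 FPKM in hH1 (log2 change -1.12 ± 0.23). NCU01969 had 14.5, 16.1 and 21.9 FPKM in wild type and 8.12, 8.61 and 7.05 FPKM in hH1 (log2 change -1.04 ± 0.18). In both genes the first wild-type library was the lowest of its strain and still lay above every hH1 library. These 2 genes overlap by 950 bases, and whether the authors' estimates used the strand of the reads is not stated, so reads of one may count for the other. NCU01968, which lies 1806 bases from NCU01969, had 28.6, 23.0 and 34.4 FPKM in wild type and 9.44, 11.5 and 10.8 FPKM in hH1, a mean of 0.370 times that in wild type (log2 change -1.34 ± 0.17). The fourth gene differed in the other direction. NCU01967, 279 bases from NCU01968, had 21.2, 23.0 and 23.4 FPKM in wild type and 45.9, 39.2 and 35.5 FPKM in hH1, 1.79 times as much by the means (log2 change 0.80 ± 0.14). It overlaps NCU01966 by 230 bases. NCU01966 was the second highest member, with 1215, 1457 and 1629 FPKM in wild type and 1552, 1689 and 1815 FPKM in hH1, and its ranges overlapped (log2 change 0.24, not called).

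The other adjacent pair of called genes lay at 36 and 38 kb on the side of higher coordinates, and both were higher in hH1. un-16 (NCU01949) encodes a protein of the cytoplasmic ribosome, and its level was 520, 458 and 544 FPKM in wild type and 692, 861 and 799 FPKM in hH1 (log2 change 0.62 ± 0.12). NCU01948, 78 bases away, had 525, 441 and 501 FPKM in wild type and 667, 785 and 730 FPKM in hH1 (log2 change 0.57 ± 0.12, the smallest size among the called members). The pair thus had nearly the same level and nearly the same difference in these libraries. un-16 also overlaps NCU01950 by 166 bases. Neither gene was called after quantile normalization of the libraries.

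Farther out, the largest difference of all members was that of NCU02061, 360 kb from matA-1 at lower coordinates. It was listed at 0.668, 0.954 and 0 FPKM in wild type and at 21.3, 32.4 and 28.3 FPKM in hH1. It was thus near the lower limit of the table in wild type and well above it in all hH1 libraries, and its log2 change of 4.24 ± 0.27 was the second largest rise among all tested genes. The gene beside it went the other way, with too little signal for a test. NCU02062 (linkage group I, 1498418 to 1499287) had 2.09, 0.996 and 0.537 FPKM in wild type and was listed at 0 in all hH1 libraries, while NCU02061 begins at 1500611 and ends at 1502061. One fragment at an effective length of 1 kb was worth 0.092 to 0.19 FPKM in these libraries, so the values of NCU02062 rest on few fragments.

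At the opposite end, NCU01849, the last member, had 25.3, 29.2 and 21.7 FPKM in wild type and 153, 147 and 162 FPKM in hH1. Every hH1 library lay far above every wild-type library, the means differed 6.07 times, and the log2 change of 2.56 ± 0.13 was the fourth largest rise among all tested genes. NCU01849 is itself the limit of the range, which was set after strain differences had been seen, so nothing is read from its place. The gene just outside the range on this side, NCU01848, was listed at 0 in all 6 libraries. At the end of lower coordinates neither side of the limit was called. NCU02065, the last gene inside, had 2.96, 4.23 and 3.49 FPKM in wild type and 3.34, 4.69 and 5.01 FPKM in hH1 (log2 change 0.22). NCU02066, the first gene outside, had 20.5, 23.0 and 25.6 FPKM in wild type and 17.1, 25.7 and 23.3 FPKM in hH1 (log2 change -0.07).

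**Figure D3:**
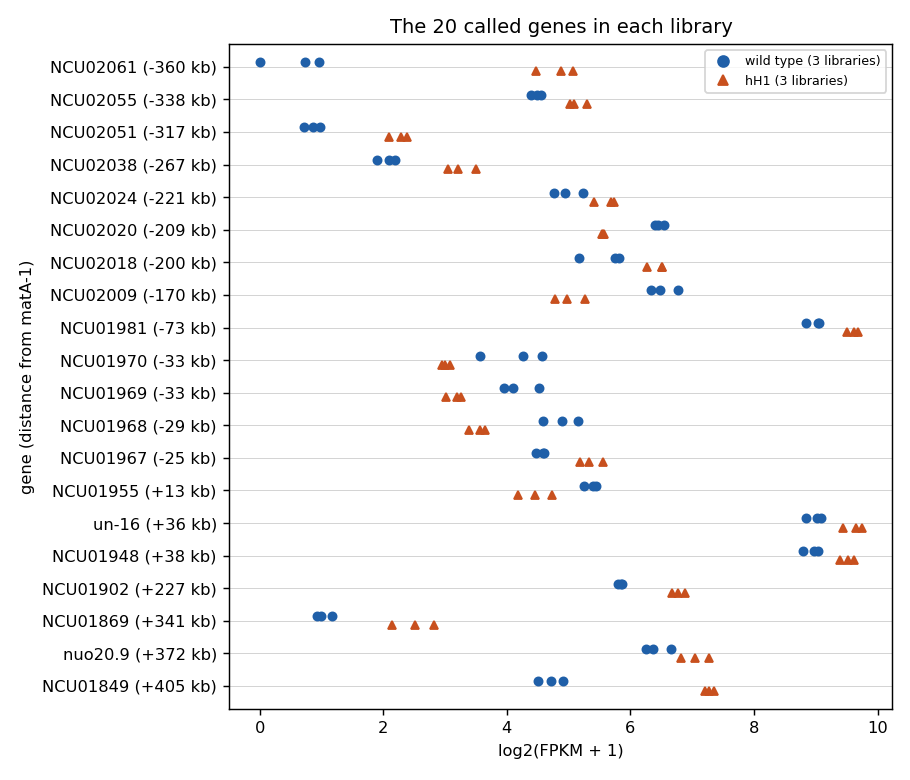
Level of the 20 called genes in each library as log2(FPKM + 1), ordered along linkage group I with the distance of each gene start from matA-1 in kb. Circles are the 3 wild-type libraries and triangles the 3 hH1 libraries, and in each of the 20 genes the strains do not overlap.

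Low genes with a large ratio were found on both arms of the stretch. NCU02051 had 0.827, 0.969 and 0.649 FPKM in wild type and 4.24, 3.26 and 3.88 FPKM in hH1, 4.66 times as much by the means (log2 change 1.40 ± 0.26). NCU01869, at 341 kb on the other side, had 1.25, 1.00 and 0.898 FPKM in wild type and 6.06, 3.39 and 4.74 FPKM in hH1, 4.52 times as much (log2 change 1.46 ± 0.26). Both genes thus stood near 1 FPKM in wild type and between 3 and 7 FPKM in hH1. NCU02038 was somewhat higher, with 3.28, 2.74 and 3.58 FPKM in wild type and 8.27, 7.31 and 10.3 FPKM in hH1 (log2 change 1.19 ± 0.20). A further low gene, NCU01923, had the eleventh largest positive change of all tested genes and was not called. Its wild-type values were all 0 and its hH1 values were 7.92, 0 and 2.10 FPKM, so that 1 hH1 library was like wild type and the SE was large (fitted log2 change 1.60 ± 0.65). Since its wild-type values are all 0, this change depends on the pseudocount and was 3.60 with a pseudocount of 0.1.

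The 2 other genes lower in hH1 lay at lower coordinates. NCU02009 had 108, 79.8 and 87.7 FPKM in wild type and 26.5, 30.5 and 37.5 FPKM in hH1, which left 0.343 times the wild-type mean (log2 change -1.52 ± 0.16, the largest fall among the members). It was the only called member between 100 and 200 kb. NCU02020 had 91.8, 85.8 and 83.5 FPKM in wild type and 46.8, 45.7 and 45.9 FPKM in hH1 (log2 change -0.90 ± 0.11). The libraries of each strain lay close together in this gene, and the hH1 mean was 0.530 times that of wild type. NCU02018, 2 numbers away, differed in the other direction, with 34.9, 52.9 and 55.3 FPKM in wild type and 90.1, 75.9 and 90.2 FPKM in hH1 (log2 change 0.85 ± 0.18).

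The remaining called genes were higher in hH1 by less than 2 times. NCU01902 had 56.5, 54.7 and 57.3 FPKM in wild type and 101, 108 and 117 FPKM in hH1, 1.94 times as much (log2 change 0.94 ± 0.11). NCU01981, a high gene at 73 kb, had 455, 522 and 529 FPKM in wild type and 726, 822 and 783 FPKM in hH1 (log2 change 0.63 ± 0.11), and it overlaps NCU01982 by 108 bases. For both, the gap between the strains exceeded the range within either strain. NCU02055 had 19.9, 22.5 and 21.5 FPKM in wild type and 31.3, 33.1 and 38.1 FPKM in hH1 (log2 change 0.66 ± 0.14), and it overlaps NCU02054 by 75 bases. NCU02024 had 29.6, 26.0 and 36.7 FPKM in wild type and 50.2, 41.7 and 52.4 FPKM in hH1 (log2 change 0.63 ± 0.16). The gap between the highest wild-type and the lowest hH1 library was narrow in NCU02024, and it lost its call with a pseudocount of 0.1. nuo20.9 (NCU01859), a subunit gene of mitochondrial complex I, had 75.1, 81.4 and 100 FPKM in wild type and 131, 112 and 153 FPKM in hH1 (log2 change 0.62 ± 0.15), and it lost its call under the same setting. A member could also lose its call when 1 library was left out, which leaves every gene with fewer libraries. Whether the values of that library or the smaller number of libraries cost the call was not tested. Only NCU01849, NCU01902, NCU02009, NCU02020 and NCU02061 were called in all 6 fits that left out 1 library. NCU01970, NCU02018, NCU02024 and nuo20.9 were each called in 1 of them. The number of called members fell from 20 to 6 without the first wild-type library and to 12 without the second. It fell to 10 without the second hH1 library and to 9 without the third. Over all tested genes the calls fell in these fits, in the same order, from 360 to 29, 119, 111 and 135.

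Members with a symbol cover many unrelated functions. Of the 25, 19 were tested, and un-16 and nuo20.9 were the 2 called, both higher in hH1. Among the members without a symbol, 12 were higher and 6 lower of 135 tested. Over all tested genes 1.73% were called higher and 3.26% lower. Since the range was chosen by this contrast, nothing is read from these counts.

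In protein synthesis, tef-1 (NCU02003), the gene for the translation elongation factor EF-1 alpha, was the highest member. It had 5400, 5806 and 5607 FPKM in wild type and 6104, 8033 and 6831 FPKM in hH1, and the strains did not overlap although the gene was not called (log2 change 0.31 ± 0.13). cyt-20, the valyl-tRNA synthetase gene, had 119, 116 and 130 FPKM in wild type and 94.3, 104 and 112 FPKM in hH1 and was not called (log2 change -0.24). The log2 change of tef-1 turned to -0.07 after quantile normalization, and that of cyt-20 was -0.01 after removal of the trend with gene length. In complex I, cia30, which encodes an assembly factor of the complex, had 32.1, 29.2 and 27.7 FPKM in wild type and 28.4, 23.2 and 25.5 FPKM in hH1. Its ranges overlapped, so that of the 2 complex I genes of the stretch only the subunit gene nuo20.9 was called.

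Of the 4 genes of DNA repair and mutation, 0 were called and 2 were tested. polh, for DNA polymerase eta, had 6.91, 5.09 and 6.27 FPKM in wild type and 3.55, 4.45 and 3.97 FPKM in hH1, without overlap. Its log2 change moved from -0.50 to -0.29 on removal of the trend with gene length. mus-42, which encodes the translesion polymerase REV1, had 1.85, 1.30 and 0.863 FPKM in wild type and 2.09, 1.74 and 1.49 FPKM in hH1, with overlap. rid-1, which is needed for repeat-induced point mutation in the sexual cycle, was too low for the test, with 0.841, 0.713 and 0.909 FPKM in wild type and 0, 0.229 and 0.237 FPKM in hH1. Its wild-type values were all above its hH1 values, at a level of few fragments. upr-1, the catalytic subunit gene of polymerase zeta, was also not tested, with 0.396, 1.21 and 1.40 FPKM in wild type and 0.935, 0.322 and 0.477 FPKM in hH1.

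The 2 amino acid genes were not called. leu-4, for alpha-isopropylmalate synthase of leucine synthesis, had 84.2, 75.3 and 93.3 FPKM in wild type and 97.5, 105 and 119 FPKM in hH1, and the strains did not overlap (log2 change 0.34). It was called higher once the libraries were centred. cys-11, for ATP sulfurylase, the entry of sulfate into assimilation, had 266, 263 and 231 FPKM in wild type and 194, 281 and 229 FPKM in hH1, with wide overlap. Of the cell wall and carbohydrate genes, acw-11, for an anchored cell wall protein, was high and overlapped between the strains, with 278, 261 and 259 FPKM in wild type and 227, 256 and 316 FPKM in hH1. The glycoside hydrolase gene gh76-1 did not exceed 0.111 FPKM in any library. gh61-10, of a family of copper enzymes that cut cellulose, was listed at 0 in all 6 libraries.

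In signalling and regulation, 4 of 4 genes were tested and 0 called. rrg-1, the response regulator of osmosensing, had 20.7, 20.1 and 17.9 FPKM in wild type and 13.8, 18.0 and 16.4 FPKM in hH1, overlapping by a small margin. The kinase gene ptk-2 had 92.8, 73.3 and 87.0 FPKM in wild type and 69.7, 64.5 and 71.1 FPKM in hH1, without overlap. ada-2, named for altered development, had 13.9, 12.4 and 16.5 FPKM in wild type and 6.39, 10.8 and 11.7 FPKM in hH1, likewise without overlap, and its lowest value was in the first hH1 library. set-8, of a SET-domain protein, had 2.91, 3.11 and 3.96 FPKM in wild type and 3.03, 2.42 and 3.68 FPKM in hH1, with overlap. Removal of the trend with gene length moved the log2 change of ptk-2 from -0.292 to -0.025 and that of rrg-1 from -0.276 to 0.014. The peroxin gene pex16 varied mainly among the hH1 libraries, with 12.2, 11.4 and 10.5 FPKM in wild type and 6.52, 11.7 and 15.8 FPKM in hH1.

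The eat genes lie close to matA-1, and none of the 4 was called. eat-2 had 47.5, 46.3 and 53.7 FPKM in wild type and 41.5, 41.9 and 43.8 FPKM in hH1. eat-3 had 25.2, 19.3 and 25.1 FPKM in wild type and 16.4, 15.9 and 17.6 FPKM in hH1. eat-6 had 3.93, 4.09 and 6.43 FPKM in wild type and 1.80, 3.33 and 3.83 FPKM in hH1. In these 3 genes every hH1 library was below every wild-type library, which held for 21.8% of all tested genes, while eat-5, which overlaps eat-6 by 275 bases, was not lower in the values as deposited. Removal of the trend with gene length moved the log2 change of eat-2 from -0.21 to 0.06 and that of eat-3 from -0.45 to -0.03, and quantile normalization moved that of eat-5 from 0.16 to -0.03.

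**Figure D4:**
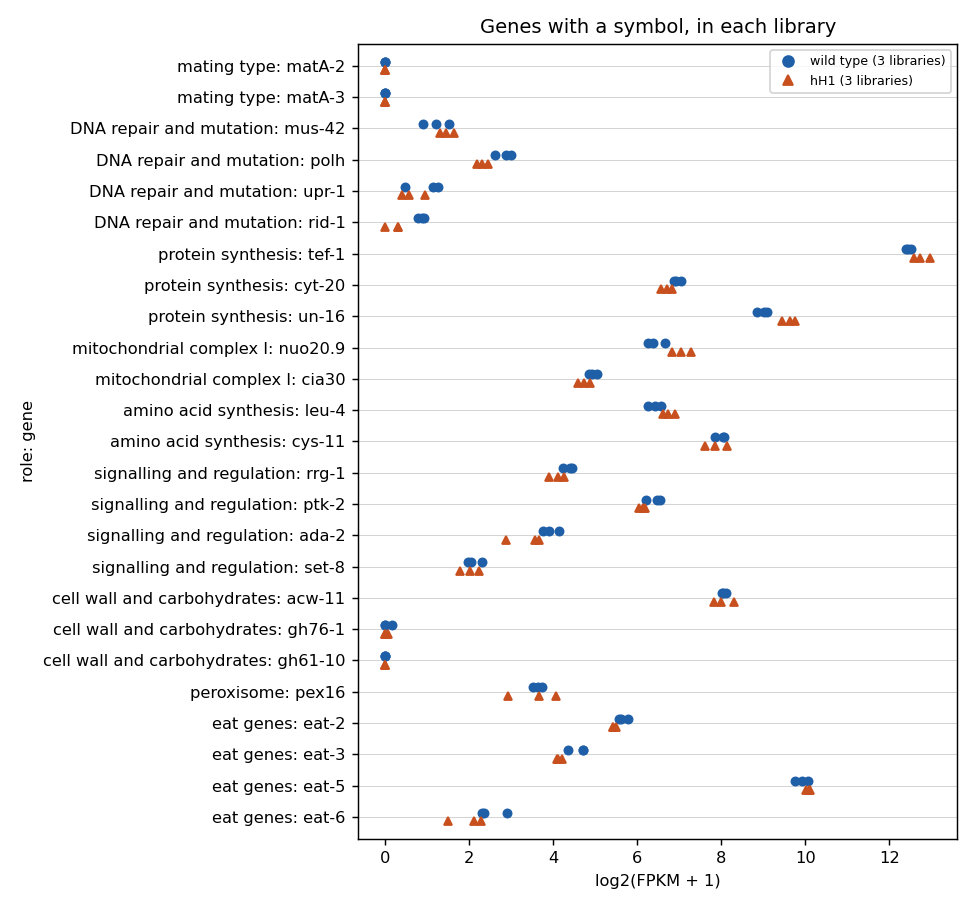
Level of the 25 genes with a symbol in each library as log2(FPKM + 1), grouped by role. Circles are the 3 wild-type libraries and triangles the 3 hH1 libraries. un-16 and nuo20.9 are the 2 called genes, and matA-2, matA-3 and gh61-10 lie at 0 in all 6 libraries.

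Other members varied more between libraries of a strain than between the strains. NCU01989 had 1.64, 5.94 and 6.55 FPKM in wild type and 5.89, 4.70 and 3.04 FPKM in hH1, and the first wild-type library alone was low. NCU01855 had 17.7, 21.7 and 21.2 FPKM in wild type and 7.32, 20.4 and 19.7 FPKM in hH1, and here the first hH1 library alone was low. The median within-strain standard deviation of the tested members was 0.198 on the log2 scale, against 0.21 for all tested genes. These 2 medians were close. NCU01871, among the 5 highest members, had 577, 592 and 642 FPKM in wild type and 497, 486 and 558 FPKM in hH1, without overlap and without a call (log2 change -0.23). Removal of the length trend turned this change to 0.02, and quantile normalization moved it to -0.39. NCU01972, too low to be tested, had 0.649, 0.596 and 0.588 FPKM in wild type and 0, 0.162 and 0 FPKM in hH1.

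The table lists 217 transcripts for the 196 members, and 20 members have more than 1. The authors' estimates split a gene's reads between its transcripts, and this division was unstable in several members. The transcript with the largest share was the same in all 6 libraries in 7 of the 20 and differed between libraries in 13. In NCU01994 the T0 transcript was listed at 0.514, 15.4 and 0.510 FPKM in wild type and at 0.510, 0.511 and 17.3 FPKM in hH1. Its T1 transcript had 15.5, 0.0736 and 19.6 FPKM in wild type and 20.1, 17.8 and 0.0300 FPKM in hH1. The libraries in which one was high were those in which the other was near 0, in both strains, and the sum over the gene stayed between 15.4 and 20.6 FPKM. In NCU01854 the T0 transcript had 2.19, 2.43 and 2.94 FPKM in wild type and 18.7, 1.49 and 0.00029 FPKM in hH1, while the gene's sum was 14.5 to 25.2 FPKM. Summed values were therefore used throughout. The division was steadier in eat-5, where the T1 transcript had 233, 186 and 149 FPKM in wild type and 356, 305 and 348 FPKM in hH1. All hH1 values of T1 lay above all wild-type values (log2 change 0.85 ± 0.17, not called among transcripts), while the log2 change of T0 was -0.07. With each transcript fitted on its own, 6 members held a called transcript, namely NCU01849, NCU01902, NCU01968, NCU02009, NCU02020 and NCU02061.

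**Figure D5:**
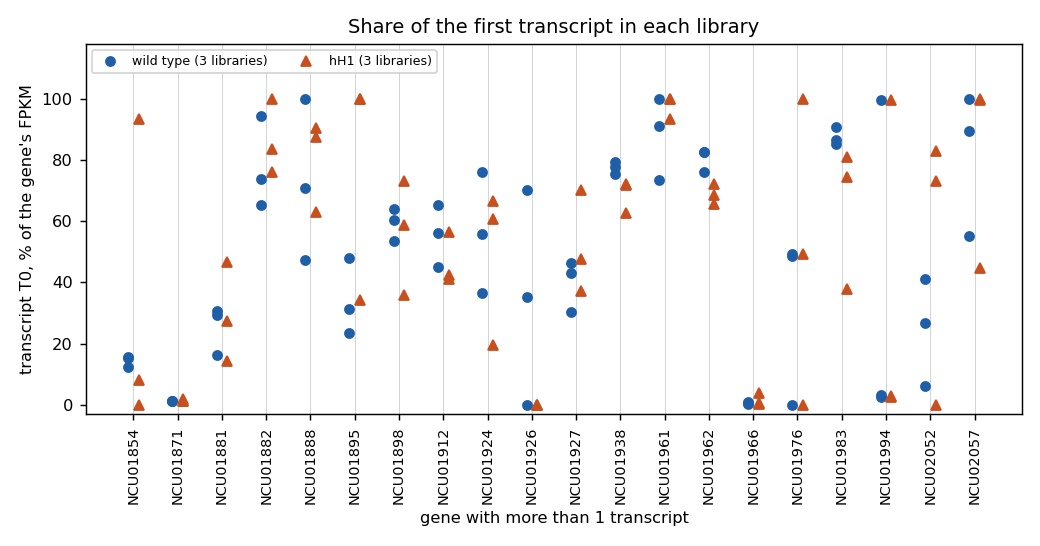
Share of the gene's FPKM held by transcript T0 in each library, in percent, for the 20 genes with more than 1 transcript. Circles are the 3 wild-type libraries and triangles the 3 hH1 libraries. In NCU01994 the share is near 100 in 1 library of each strain and near 0 in the other 4, whereas in eat-5 (NCU01962) all hH1 shares lie below all wild-type shares.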

How the data were processed

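RNA-seq was done on 3 wild-type and 3 hH1 libraries, strand-specific and depleted of ribosomal RNA. Per the submitters' processing notes, the authors aligned reads with TopHat2 2.0.14 and made the deposited FPKM values per transcript with Cuffnorm, whose version is not given in the sources used here. The scaling between libraries is not stated. Over all genes the FPKM summed to 551935 to 572043 in the wild-type libraries and 626049 to 639266 in the hH1 libraries. The median gene had 8.87 to 9.45 FPKM in the wild-type libraries and 7.86 to 8.76 FPKM in the hH1 libraries. Columns carry the strain but no replicate number of the labels, and 0 columns were left unused. The series' other assays were not analysed here.

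Gene values are sums over transcripts that share an identifier apart from its suffix. Symbols and positions came from a RefSeq gene table of NC12, which listed 9729 of 9730 genes and gave no strand or product. No genome or promoter sequence was used, so a planned search for promoter motifs was not run. Genes whose mean reached 1 FPKM were fitted as log2(FPKM + 1) in limma 3.58.1 under R 4.3.3 (lmFit, then eBayes with trend=TRUE). Two-sided p-values were adjusted by the Benjamini-Hochberg method over 7208 genes. The test was first run on simulated data. Depth was estimated from steps of low values in 8503 genes with 1 transcript, after subtraction of 205 bases from the gene length and with a tolerance of 0.1 fragment. It assumes that every library was scaled by its own total, and it bears on low genes most. Other steps were run in Python 3.11.15 (pandas 2.3.3, numpy 2.4.6, scipy 1.17.1), and plots were drawn with matplotlib 3.10.9.

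The members and lists were chosen with earlier results of these data known. The genes named were all called members, the 5 highest in wild type, those with a symbol, the 4 nearest matA-1 on each side and those at the limits of the range. Also named were members at 0 in every library of 1 strain that were above 0 in every library of the other, with a mean of at least 0.5 FPKM. NCU01923, NCU01989 and NCU01855 were named as the tested members with the largest within-strain spread on the log2 scale. NCU01972, NCU01994 and NCU01854 were chosen after their values were seen. Alternatives were the pseudocount, the filter, centring, quantile normalization, limma's variance settings, removal of each library's trend with gene length, transcripts in place of genes, and leaving out each library.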

Additional observations from a re-analysis of the deposited data

How the results depend on the processing

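The 20 called members were among 360 called genes. With a pseudocount of 0.1 they were 18 of 317, and with a mean of at least 5 FPKM 19 of 389. After quantile normalization they were 19 of 331, and with limma's robust setting 20 of 380. After removal of the trend with gene length they were 21. They were 16 without the filter on low values, where 188 genes were called in all, and 12 (7 higher and 5 lower) without a variance trend, where 135 genes were called. Removal of the length trend left 215 calls over all genes. With each transcript on its own, 6 members were called (3 higher and 3 lower) and 45 genes in all. Centring the libraries moved the median log2 change of all tested genes from -0.10 to 0.01. It gave 25 called members (19 higher and 6 lower, or 76.0% higher against 70.0%) among 421 called genes (66.7% higher against 34.7%), of which 5 members were called from 100 to 200 kb. Without 1 library, 6 to 20 members were called (3 to 15 higher and 3 to 5 lower) and 29 to 372 genes in all. The counts were 6 without the first wild-type library, 12 without the second, 20 without the third, 17 without the first hH1 library, 10 without the second and 9 without the third. By distance they were 1 to 6 within 50 kb, 0 to 1 from 50 to 100 kb, 1 to 2 from 100 to 200 kb, 2 to 5 from 200 to 300 kb and 2 to 6 beyond, and by side 4 to 13 at lower and 2 to 7 at higher coordinates. The cause of these changes was not tested. Of the 20 called members, 12 kept their call under every setting that tested them with all 6 libraries and summed transcripts. No called member changed direction in any fit. Leaving out a library, the pseudocount, the filter and the variance settings could not reverse them, since their strains did not overlap. Of the 26 named genes that were not called, some with changes near 0, 13 changed direction in at least 1 fit. Nothing is read from this contrast. No paired analysis was possible because the columns carry no replicate numbers of the labels. Depth is known only as an estimate, and members near or under 1 FPKM rest on few fragments.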
